A study of Mus musculus with 6 samples.

Results

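The genes described here are 36 genes of DNA replication, taken as a list: the loaders and subunits of the replicative helicase, the polymerases and primase, the sliding clamp and its loader, enzymes of deoxynucleotide supply, and a few proteins that assemble chromatin or control S phase. Each was represented by the brightest probe set that names that gene alone in the platform annotation. Such a probe set was found for 35 of the 36 among 18194 genes in all. Chaf1a was not analysed here. A filter on dim genes, at the 40th percentile of the mean log2 signal, left 34 members among 10916 tested genes. Tyms fell under it and is given by its signals only.

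Messenger RNA was measured on 6 single-colour Affymetrix mouse arrays of tumour cells of the ovarian surface epithelium, the cell layer that covers the ovary. Tissue was dissociated with trypsin, and the plated cells were harvested before any passage. All samples carry a background that the titles call P/K and do not spell out, on a mixed strain. The 3 groups of 2 arrays express wild-type p53 (animals of 9 weeks), wild-type p53 together with the p53 mutant R172H (heterozygous, animals of 9 and 12 weeks), or R172H on both alleles (homozygous, animals of 4 weeks). A label field of the homozygous samples gives the name of a relative of p53, and their titles were used instead. Age and homozygosity cannot be told apart. The heterozygous arrays differ in animal age, so they are not technical repeats of the same sample. For the other groups nothing in the labels says whether the arrays came from separate animals or cultures. The p-values therefore measure only the spread between these samples, part of which may be technical.

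DNA replication starts at origins, where the origin recognition complex, Cdc6 and Cdt1 load rings of the Mcm2 to Mcm7 helicase in G1. At the start of S phase the Cdc7 kinase, Cdc45, Mcm10 and the GINS complex turn the loaded rings into active helicases, and polymerase alpha with primase starts each strand. Polymerases epsilon and delta then extend it, held by the Pcna clamp that the Rfc complex loads. Most of these genes are transcribed as cells enter S phase under the control of E2F factors. In cells with working p53, its target p21 keeps RB-family proteins on E2F-type promoter sites and so holds many of them down. Their summed messenger RNA is therefore widely read as a sign of cycling cells.

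Promoter sequences are shown because the members shared an order of the arrays. RefSeq promoter windows on GRCm38.p6, from 250 bases before to 50 after an annotated gene start, were given for 29 of the 36 genes, in 33 windows. The E2F-type motifs searched, on both strands, were TTCCCGC as well as TTCGCGC, and further TTGGCGC together with TTGCCGC, which can overlap each other in palindromic sites. At least 1 of them lay in 22 of 33 member windows (66.7%), against 9.57% of all 32851 windows in the table. CCAAT, the box bound by NF-Y, was found in 18 of 33 (54.5%) against 37.4%, and it can overlap TTGGCGC when read on the other strand. TTTGAA, the CHR-type motif of mitotic genes, was found in 5 of 33 (15.2%) against 17.9%. A match describes letters and is no evidence of binding. No E2F-type match lay in the windows of Cdc45, Dut, E2f1, Mcm10, Mcm2, Pcna, Rfc5, Slbp, Tk1 and Tyms. The upstream part of Mcm6, a helicase subunit, is shown whole because it holds 2 pairs of overlapping sites on opposite strands, at 109 to 100 and at 46 to 37 bases before the start. Stretches of 60 bases are shown for 8 members of different roles that have a site upstream of the start, among them Cdc6, with the largest difference between the homozygous arrays, and Rrm1, where that difference was small. Capitals mark the E2F-type matches, and each sequence is written 5′ to 3′ on the gene's strand.
Mcm6, chr1:128359706-128359955, minus strand: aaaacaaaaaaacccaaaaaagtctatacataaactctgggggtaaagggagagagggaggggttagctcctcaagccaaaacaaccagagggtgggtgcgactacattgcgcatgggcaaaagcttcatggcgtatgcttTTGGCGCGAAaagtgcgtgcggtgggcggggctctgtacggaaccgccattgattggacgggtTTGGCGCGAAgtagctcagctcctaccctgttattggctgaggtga
Mcm5, chr8:75109334-75109393, plus strand: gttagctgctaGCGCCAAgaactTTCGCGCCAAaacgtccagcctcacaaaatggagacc
Mcm7, chr5:138172015-138172074, minus strand: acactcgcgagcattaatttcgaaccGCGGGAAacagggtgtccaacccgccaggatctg
Cdc6, chr11:98907987-98908046, plus strand: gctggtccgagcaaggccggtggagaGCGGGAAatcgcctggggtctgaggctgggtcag
Pola1, chrX:93632243-93632302, minus strand: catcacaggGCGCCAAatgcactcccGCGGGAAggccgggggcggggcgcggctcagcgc
Prim1, chr10:128015155-128015214, plus strand: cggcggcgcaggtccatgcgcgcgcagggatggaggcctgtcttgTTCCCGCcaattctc
Rfc3, chr5:151651209-151651268, minus strand: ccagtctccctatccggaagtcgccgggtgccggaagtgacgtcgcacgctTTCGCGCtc
Rrm1, chr7:102441602-102441661, plus strand: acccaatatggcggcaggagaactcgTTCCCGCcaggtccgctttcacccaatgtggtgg
Uhrf1, chr17:56303263-56303322, plus strand: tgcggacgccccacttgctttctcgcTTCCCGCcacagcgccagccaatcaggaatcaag

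**Figure D1:**
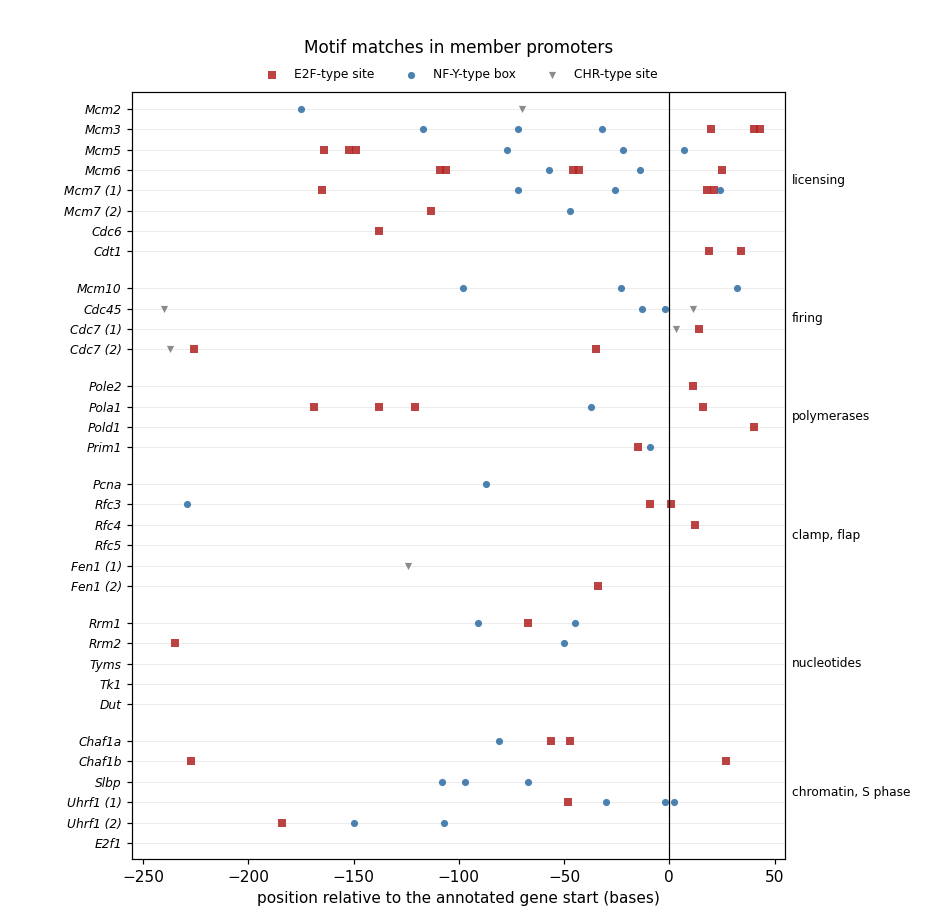
Positions of motif matches in the 33 promoter windows of 29 members, with the annotated gene start at 0 on the horizontal axis in bases and 1 row per window, numbered where a gene has 2. Squares mark E2F-type sites, circles NF-Y-type boxes and triangles CHR-type sites; 22 of the 33 windows hold an E2F-type site.

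The arrays differed in ways the groups do not explain. Wild-type array 2 and heterozygous array 1 lay close together, with a median absolute log2 difference of 0.15 over all tested genes, against 0.30 within the wild-type, 0.29 within the heterozygous and 0.42 within the homozygous pair. Whether these arrays share a source, or whether their labels were exchanged, was not tested, and every wild-type and heterozygous mean below holds 1 of them. Without both, each tested member was positive between homozygous and wild-type cells (log2 differences of 0.60 to 3.37) and between homozygous and heterozygous cells (0.55 to 3.32). The medians by role against wild-type were then 1.80 for licensing, 2.06 for firing, 1.97 for polymerases and primase, 1.34 for the clamp and its loader, 1.59 for nucleotide supply and 0.86 for chromatin and S-phase control, from 1 wild-type array and with no test. Both arrays left out were the higher of their pair for 34 of 34 members, so leaving them out could only raise these differences. From wild-type array 2 the median of members rose by 0.99 to homozygous array 1 and by 0.29 to homozygous array 2. From heterozygous array 1 it rose by 0.96 and 0.34. The list of surface epithelial and mesothelial markers lay above the background signal of 24.5 for 14 of 14 genes in every wild-type and heterozygous array, for 12 in homozygous array 1 and 14 in array 2. Their summed signal was 170134 and 211913 for wild-type, 190904 and 152166 for heterozygous, and 60335 and 77238 in the homozygous arrays. Such sums rest on the brightest probe sets, and Krt18 alone gave 25436 in homozygous array 1. Within the homozygous pair 10 of the 14 markers were higher in array 2 and 4 in array 1, with a median log2 gap of 1.65. The 11 macrophage markers summed to 3147 and 2618 in wild-type, 5505 and 5619 in heterozygous and 315 and 712 in homozygous arrays, with 11 above background in each of the first 4 and 6 and 4 in the homozygous arrays. The 8 fibroblast markers summed to 22866 in homozygous array 1 and 88185 in array 2, and to between 45514 and 65395 in the others, with 5 above background in homozygous array 1 and 8 in every other array. Only 2 of these 8 were positive between homozygous and wild-type cells, with a median log2 difference of -2.11. Endothelial markers (8) summed to between 9240 and 11034 in wild-type and heterozygous and to 1964 and 2847 in homozygous arrays, with 4 to 7 and 4 above background. Granulosa and theca markers (9, of which Cyp17a1 was under background in every array) summed to between 9740 and 16540 in the former and to 310 and 3288 in the latter, with 6 to 8 and then 5 and 7 above background. Of 7 lymphocyte markers, which summed to between 268 and 452, 2 or 3 were above background in each array, and Cd3g, Cd4, Cd79a and Ms4a1 were under it in all 6. RNA quality was read from control probe sets, as the log2 excess of the 3' end over the 5' end. For beta-actin it was 0.77 and 0.74 in wild-type, 0.66 and 0.96 in heterozygous and 0.59 and 0.39 in homozygous arrays. For Gapdh it was -0.02 and -0.03, -0.13 and 0.01, and -0.18 and -0.12 in the same order. The part of these differences in the results below was not tested. In bulk samples fewer cells of a type, or here fewer cycling cells, and less RNA per cell cannot be told apart.

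The 34 tested replication genes stood highest in the homozygous cells and, within the other groups, split by array. Their geometric mean signal was 907 and 1781 in the wild-type arrays, 1754 and 742 in the heterozygous arrays, and 3626 and 2309 in the homozygous arrays. The median signal of all tested genes lay between 659 and 751 in every array. Wild-type array 2 and heterozygous array 1 lay above wild-type array 1 and heterozygous array 2 for 34 of 34 members, against 19.9% of all tested genes. The homozygous arrays both lay above the other 4 for 29 of 34 members, against 23.4% of all tested genes; the exceptions were Mcm4, Rfc2, Rrm2, Tk1 and Chaf1b. The highest array was homozygous array 1 for 31 members (28.0% of all tested genes) and homozygous array 2 for Cdc7, Pole and Rrm1. The lowest array was heterozygous array 2 for 25 members and wild-type array 1 for the other 9. The full order, homozygous array 1, then homozygous array 2, then wild-type array 2 and heterozygous array 1, then wild-type array 1 and heterozygous array 2, held for 26 of 34 members and for 6.96% of all tested genes.

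**Figure D2:**
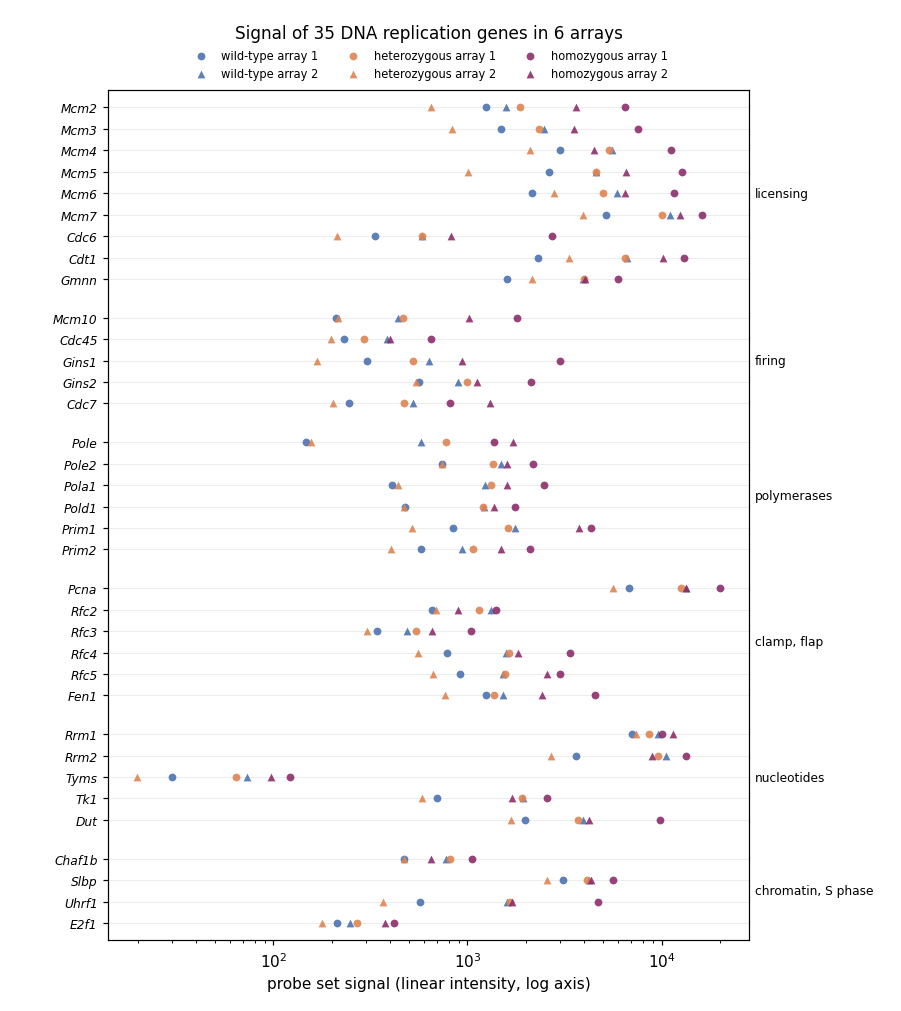
Signal of the 35 members with a probe set (rows, grouped by role) in the 6 arrays, on a log axis of linear intensity; colours mark the groups, circles array 1 and triangles array 2. Homozygous array 1 is rightmost for 31 of the 34 tested members, and wild-type array 2 and heterozygous array 1 lie to the right of wild-type array 1 and heterozygous array 2 for all 34.

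Of the 9 genes of origin licensing and helicase loading, 8 had both homozygous arrays above both wild-type arrays, against 27.4% of all tested genes. The median log2 difference of the 9 between homozygous and wild-type cells was 1.39, or 2.61-fold. Mcm2, an outer subunit of the helicase ring, had signals of 1246 and 1583 with wild-type p53, 1872 and 652 in heterozygous and 6491 and 3634 in homozygous cells. Mcm3, another ring subunit, had 1493 and 2473 with wild-type p53, 2344 and 834 in heterozygous and 7569 and 3549 in homozygous cells. The homozygous arrays lay clear of the other 4 for these subunits, with array 1 above array 2, while heterozygous array 2 lay lowest. Mcm5, a neighbour of Mcm2 in the ring, had 2635 and 4618 with wild-type p53, 4600 and 1006 in heterozygous and 12688 and 6551 in homozygous cells. Mcm6, which sits next to Mcm2 as well, had 2153 and 5893 with wild-type p53, 5005 and 2806 in heterozygous and 11611 and 6472 in homozygous cells. Mcm7, of the catalytic core, had 5167 and 11093 with wild-type p53, 10043 and 3921 in heterozygous and 16256 and 12477 in homozygous cells. The homozygous arrays were again the highest, by a narrow step from wild-type array 2 to homozygous array 2 for Mcm6 and Mcm7, and the lowest was heterozygous array 2 for Mcm5 and Mcm7 and wild-type array 1 for Mcm6. Mcm4, also of that core, was the exception, with 3000 and 5556 with wild-type p53, 5329 and 2112 in heterozygous and 11250 and 4496 in homozygous cells. Homozygous array 2 lay under wild-type array 2 and heterozygous array 1 there, so the groups overlapped.

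The loading factors differed in how far the homozygous arrays stood apart. Cdc6, the ATPase that helps to open and load the ring, had 332 and 585 with wild-type p53, 584 and 212 in heterozygous and 2722 and 827 in homozygous cells. Cdt1, its partner, had 2302 and 6649 with wild-type p53, 6498 and 3321 in heterozygous and 13109 and 10183 in homozygous cells. Cdc6 was high mainly in homozygous array 1, while Cdt1 was high in both homozygous arrays. Gmnn, geminin, which binds Cdt1 and blocks loading once S phase has begun, had 1595 and 3953 with wild-type p53, 3996 and 2156 in heterozygous and 5948 and 4033 in homozygous cells. For Gmnn homozygous array 2 exceeded the higher wild-type array only narrowly. The log2 difference between homozygous and wild-type cells was 1.79 ± 0.58 (SE, n = 2 arrays per group here and below) for Mcm2, 1.77 ± 0.77 for Cdc6, 1.56 ± 0.61 for Cdt1 and 0.80 ± 0.67 for Mcm4. By limma with Benjamini-Hochberg adjustment over all tested genes their adjusted p was 0.127, 0.199, 0.167 and 0.461, and none passed 0.05. Mcm3, Mcm5, Mcm6, Mcm7 and Gmnn had log2 differences of 1.43, 1.39, 1.28, 0.91 and 0.96.

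All 5 genes that turn a loaded ring into an active helicase had both homozygous arrays above the other 4, against 23.4% of all tested genes. Their median log2 difference from wild-type was 1.52. Mcm10, which is needed to start unwinding, had 211 and 439 with wild-type p53, 466 and 216 in heterozygous and 1795 and 1024 in homozygous cells. Its log2 difference from wild-type was 2.16 ± 0.57, with a 95% interval of 0.71 to 3.61 and the lowest adjusted p of any member in this comparison (limma, 0.0952). Gins1, a subunit of the GINS complex, had 302 and 630 with wild-type p53, 525 and 168 in heterozygous and 2991 and 941 in homozygous cells. Gins1 was far higher in homozygous array 1 than in array 2, and the difference from wild-type was 1.94 ± 0.82. Gins2, another subunit, had 565 and 894 with wild-type p53, 999 and 540 in heterozygous and 2136 and 1120 in homozygous cells. Cdc45, which joins GINS and the ring in the active helicase, had 232 and 384 with wild-type p53, 293 and 198 in heterozygous and 652 and 397 in homozygous cells. The step from wild-type array 2 to homozygous array 2 was slight for Cdc45, at 384 against 397. Cdc7, the kinase that triggers firing, had 246 and 523 with wild-type p53, 473 and 203 in heterozygous and 808 and 1303 in homozygous cells. It differed from its partners in that homozygous array 2 was the higher of the pair. Log2 differences from wild-type were 1.12 ± 0.49 for Gins2, 0.77 ± 0.41 for Cdc45 and 1.52 ± 0.58 for Cdc7.

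All 6 genes of the polymerases and primase had both homozygous arrays above the other 4, against 23.4% of all tested genes. Their median log2 difference from wild-type was 1.38. Pole, the catalytic subunit of leading-strand polymerase epsilon, had 148 and 577 with wild-type p53, 772 and 157 in heterozygous and 1368 and 1713 in homozygous cells. This was the largest difference among the members, 2.39 ± 0.96, and also the largest spread, since the wild-type arrays differed by 1.97 and the heterozygous arrays by -2.29 on the log2 scale. Pole2, an accessory subunit of the same enzyme, had 740 and 1495 with wild-type p53, 1361 and 738 in heterozygous and 2179 and 1607 in homozygous cells. Its difference from wild-type was 0.83 ± 0.48. Whether subunits of this complex differ in size was not tested. Pola1, the catalytic subunit of polymerase alpha, had 407 and 1230 with wild-type p53, 1327 and 441 in heterozygous and 2475 and 1598 in homozygous cells. Pold1, that of polymerase delta, had 476 and 1219 with wild-type p53, 1206 and 471 in heterozygous and 1753 and 1367 in homozygous cells. For Pold1 the homozygous arrays cleared wild-type array 2 only narrowly. The primase subunits Prim1, which makes the RNA primer, and Prim2 stood further apart. Prim1 had 845 and 1762 with wild-type p53, 1618 and 517 in heterozygous and 4307 and 3740 in homozygous cells. Prim2 had 577 and 934 with wild-type p53, 1072 and 404 in heterozygous and 2102 and 1493 in homozygous cells. Log2 differences from wild-type were 1.72 ± 0.64 for Prim1, 1.27 ± 0.55 for Prim2, 1.49 ± 0.75 for Pola1 and 1.02 ± 0.64 for Pold1, with a lowest adjusted p of 0.158 (limma, Prim1).

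The 6 genes of the clamp, the clamp loader and flap removal had a median log2 difference from wild-type of 1.09. For 5 of them the homozygous arrays lay above the wild-type arrays without overlap, against 27.4% of all tested genes. Pcna, the sliding clamp, had 6797 and 13331 with wild-type p53, 12594 and 5650 in heterozygous and 19901 and 13400 in homozygous cells. Homozygous array 2 and wild-type array 2 were nearly level, so the difference of 0.78 ± 0.54 rests on homozygous array 1 and wild-type array 1. The small clamp-loader subunits Rfc3, Rfc4 and Rfc5 lay higher in both homozygous arrays than in any other. Rfc3 had 342 and 486 with wild-type p53, 546 and 302 in heterozygous and 1040 and 657 in homozygous cells. Rfc4 had 787 and 1573 with wild-type p53, 1646 and 558 in heterozygous and 3373 and 1815 in homozygous cells. Rfc5 had 919 and 1526 with wild-type p53, 1562 and 666 in heterozygous and 3011 and 2560 in homozygous cells. In all 3 heterozygous array 2 was lowest. Rfc2, a subunit of the same complex, overlapped instead, with 653 and 1326 with wild-type p53, 1151 and 691 in heterozygous and 1400 and 897 in homozygous cells. Its difference was the smallest of all members, 0.27 ± 0.48 with a 95% interval of -0.95 to 1.49, and it was -0.24 without wild-type array 1 and -0.052 without homozygous array 1. Fen1, the nuclease that trims flaps between Okazaki fragments, had 1248 and 1517 with wild-type p53, 1372 and 767 in heterozygous and 4533 and 2413 in homozygous cells. Fen1 varied little between the wild-type arrays, and its difference of 1.27 ± 0.44 had an adjusted p of 0.143 by limma. Rfc3, Rfc4 and Rfc5 had differences of 1.02 ± 0.42, 1.15 ± 0.67 and 1.23 ± 0.49.

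The enzymes that make deoxynucleotides stood less far apart, with a median log2 difference from wild-type of 0.83 over 4 tested genes. Of these, Rrm1 and Dut were higher in homozygous cells without overlap, by narrow steps, against 27.4% of all tested genes. Rrm1, the large subunit of ribonucleotide reductase, had 7067 and 9578 with wild-type p53, 8635 and 7354 in heterozygous and 10069 and 11465 in homozygous cells. Rrm1 varied least within groups of all members, and its difference was 0.39 ± 0.26 (95% interval -0.28 to 1.05). Rrm2, the small subunit that is made in S phase, had 3616 and 10556 with wild-type p53, 9533 and 2693 in heterozygous and 13374 and 8941 in homozygous cells. Tk1, the thymidine kinase of cycling cells, had 695 and 1940 with wild-type p53, 1919 and 586 in heterozygous and 2555 and 1691 in homozygous cells. For Rrm2 and Tk1 wild-type array 2 and heterozygous array 1 lay above homozygous array 2, so the groups overlapped, with differences of 0.82 ± 0.79 and 0.84 ± 0.75. Dut, which keeps uracil out of DNA, had 1984 and 3924 with wild-type p53, 3692 and 1679 in heterozygous and 9808 and 4217 in homozygous cells and a difference of 1.20 ± 0.63. Tyms, thymidylate synthase, had 29.9 and 72.9 with wild-type p53, 64.5 and 19.9 in heterozygous and 122 and 97.5 in homozygous cells. Its homozygous arrays also lay above the other 4, but several of these signals are close to the background of 24.5, heterozygous array 2 lay under it, and Tyms was not tested. Its other probe sets, also under the filter, differed in direction, with homozygous minus wild-type values of -1.44, 0.98 and -0.29.

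The 4 tested genes of chromatin assembly and S-phase control had a median log2 difference from wild-type of 0.63. Uhrf1, which reads newly replicated methylated DNA, had 567 and 1602 with wild-type p53, 1653 and 365 in heterozygous and 4719 and 1686 in homozygous cells. Homozygous array 2 barely exceeded wild-type array 2 there, and the difference was 1.57 ± 0.96. E2f1, the transcription factor of S-phase entry, had 213 and 247 with wild-type p53, 271 and 179 in heterozygous and 420 and 376 in homozygous cells. E2f1 varied least between arrays of a group after Rrm1, with a difference of 0.80 ± 0.29 and an adjusted p of 0.151 by limma. Slbp, which binds the stem-loop of histone messenger RNA, had 3122 and 4225 with wild-type p53, 4116 and 2557 in heterozygous and 5611 and 4333 in homozygous cells. Chaf1b, a subunit of the chromatin assembly factor CAF-1, had 470 and 776 with wild-type p53, 812 and 472 in heterozygous and 1055 and 652 in homozygous cells. Homozygous array 2 lay under wild-type array 2 and heterozygous array 1 for Chaf1b and narrowly above them for Slbp, with differences of 0.46 ± 0.44 and 0.44 ± 0.34.

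The comparison of homozygous with wild-type cells sets R172H on both alleles against wild-type p53. Loss of wild-type p53, presence of the mutant and animal age cannot be told apart in it. All 34 tested members were positive, with a median log2 difference of 1.18, or 2.26-fold, against a median of -0.09 and 45.4% positive over all tested genes. None of the 34 passed limma at an adjusted p under 0.05, where 291 of 10916 genes (2.67%) did, 45 higher (0.412%) and 246 lower (2.25%). That count over all genes was 0 without either wild-type or either heterozygous array, 673 without homozygous array 1 and 2663 without array 2. At an unadjusted p under 0.05, 7 of 34 were higher against 11.7% of all tested genes, by the same fit. With a spread that differs between groups 0 of 34 members passed by limma, against 194 of 10916 genes, 16 higher and 178 lower. In that fit 3 of 34 members had an unadjusted p under 0.05, against 2722 of 10916 genes in either direction. Groups did not overlap for 29 of 34 members, all higher, against 27.4% of all tested genes that were higher without overlap. The adjusted p of members lay between 0.0952 and 0.737. Leaving out wild-type array 1 gave a median of 0.70, and leaving out array 2 of that group gave 1.62, which is also the value without both close arrays. Without homozygous array 2, 3 of 34 members passed by limma, all higher, against 7% of all tested genes that passed as higher in that fit: Cdc6 (2.63, adjusted p 0.0412), Fen1 (1.72, 0.0376) and Mcm10 (2.56, 0.0362). There the remaining homozygous array is assumed to vary like the other groups.

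Homozygous against heterozygous cells, which still hold a wild-type allele, had differences of like size. All 34 members were positive, with a median of 1.26, or 2.40-fold, against -0.08 and 45.7% positive over all tested genes. By limma 0 of 34 passed, against 446 of 10916 genes (4.09%), 95 higher (0.87%) and 351 lower (3.22%). The count over all genes was 9 without either wild-type array, 0 without either heterozygous array, 728 without homozygous array 1 and 2841 without array 2. Of the members 13 had an unadjusted p under 0.05, all higher, against 12.5% of all tested genes. With a spread that differs between groups 0 of 34 members passed by limma, against 293 of 10916 genes. In that fit 6 of 34 members had an unadjusted p under 0.05, against 2958 of 10916 genes in either direction. Groups did not overlap for 29 of 34, all higher, against 28.2%. The members nearest the threshold were Fen1 (1.69 ± 0.44, adjusted p 0.0850), Mcm2 (2.14 ± 0.58, 0.0903) and Mcm10 (2.10 ± 0.57, 0.0903). Gins1 had the largest difference, 2.50 ± 0.82, and Rfc2 the smallest, 0.33 ± 0.48. The median was 0.68 without heterozygous array 2 and 1.90 without heterozygous array 1 or without both close arrays. Without homozygous array 2, and with the remaining one assumed to vary like the other groups, 6 of 34 members passed by limma as higher, against 7.54% of all tested genes: Cdc6, Fen1, Gins1, Mcm10, Mcm2 and Mcm3. These values share the homozygous arrays with the comparison above and are set beside it, not added to it.

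Heterozygous and wild-type arrays overlapped for these genes. The median log2 difference of the 34 members was -0.16 (0.00461 over all tested genes), with 8 positive against 50.8% of all tested genes, and members ranged from -0.70 ± 0.81 for Mcm5 to 0.26 ± 0.96 for Pole. By limma 0 of 34 members and 0 of 10916 genes (0%) passed, and 0 members and 71 genes (0.65%) had an unadjusted p under 0.05. The groups overlapped for 34 of 34 members, whereas 13.2% of all tested genes were higher and 12.8% lower without overlap. The 95% interval ran from -1.82 to 1.13 for Mcm2 and from -0.71 to 0.62 for Rrm1, so a shift of 2-fold in either direction lies inside the interval of Mcm2. The sign of the median turned with the array left out: leaving out wild-type array 1 gave -0.66 and array 2 of that group 0.30, and it was -0.79 without heterozygous array 1 and 0.41 without heterozygous array 2. Without both close arrays it was -0.26.

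**Figure D3:**
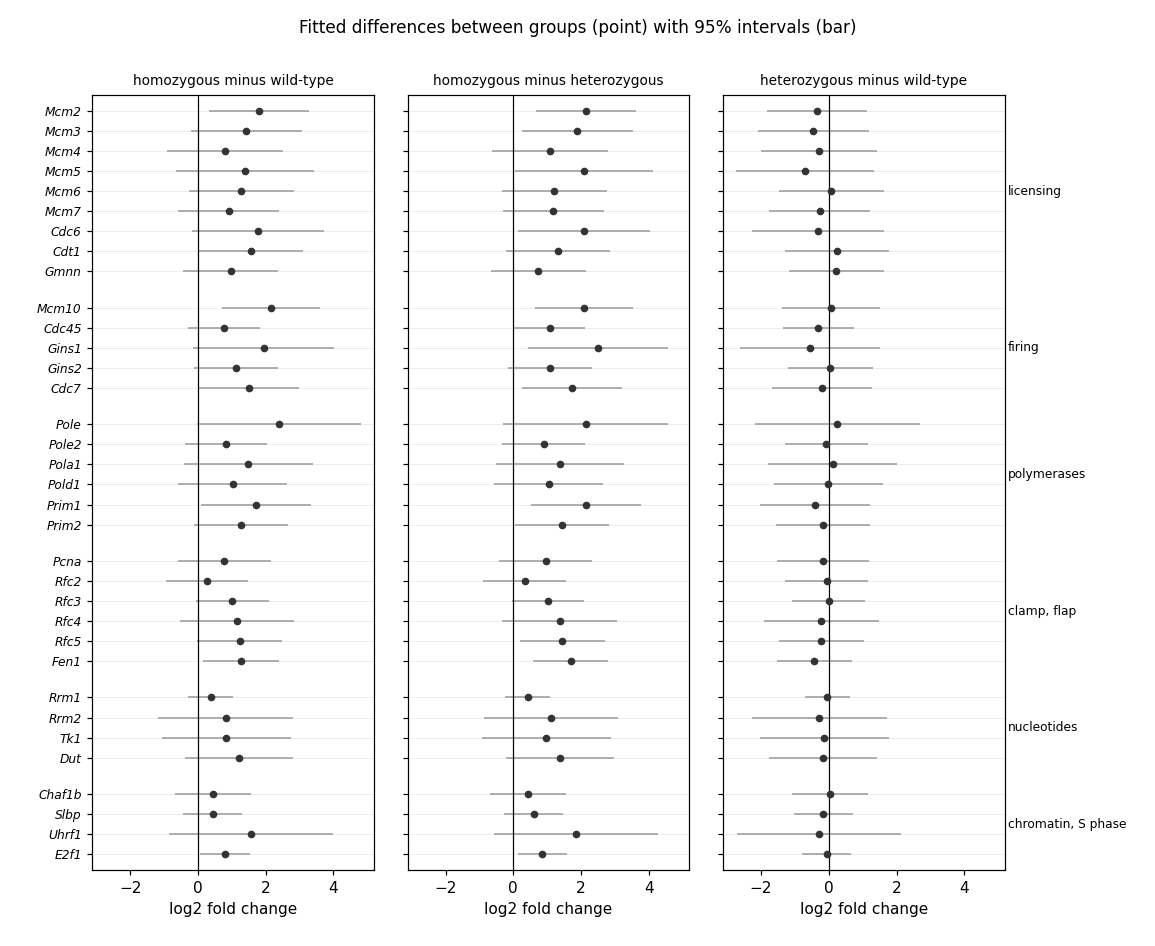
Log2 fold change of the 34 tested members (rows, by role) in 3 comparisons, as limma estimates (points) with 95% intervals (bars), from 2 arrays per group. All points lie right of 0 in the panels with homozygous cells, with medians of 1.18 and 1.26, and around 0 in the panel of heterozygous against wild-type cells.

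The gap between arrays of a group was itself large for these genes. In the wild-type pair array 2 exceeded array 1 for 34 of 34 members, by a median log2 difference of 0.99, where 47.5% of all tested genes were higher in array 2 and 4.10% exceeded that median. In the heterozygous pair the direction of the numbers was opposite, with array 1 higher for 34 of 34 and a median of -1.22 for array 2 minus array 1; 2.48% of all tested genes lay further down. Rrm1 had the narrowest heterozygous gap, -0.23, and Pole the widest, -2.29. The numbers of the arrays only name them. The heterozygous arrays also differ in animal age, with 9 weeks for array 1 and 12 weeks for array 2, whereas both wild-type arrays are of 9 weeks. The part of age in the heterozygous gap was not tested. Between wild-type array 2 and heterozygous array 1, which belong to different groups, the median absolute difference of members was 0.12 and the largest 0.42, and between wild-type array 1 and heterozygous array 2 the median absolute difference was 0.33.

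In the homozygous pair array 1 exceeded array 2 for 31 of 34 members, with a median of -0.64 for array 2 minus array 1. Over all tested genes the median was 0.04, with 47.3% higher in array 1, and 13.1% lay below -0.64. The widest gaps were those of Cdc6 (-1.72, 3.29-fold), Gins1 (-1.67), Uhrf1 (-1.48) and Mcm4 (-1.32). The members higher in array 2 were Cdc7 (0.69), Pole (0.32) and Rrm1 (0.19). By role the median gap was -0.84 for licensing, -0.81 for firing, -0.40 for polymerases and primase, -0.65 for the clamp and its loader, -0.59 for nucleotide supply and -0.53 for chromatin and S-phase control. All tested genes were lower in array 2 for licensing (9 of 9), for the clamp and its loader (6 of 6) and for chromatin and S-phase control (4 of 4). For replication genes the homozygous pair was the least variable, whereas over all genes it was the most variable. It supplied 19.1% of the summed within-group variance of the members (31.3% wild-type, 49.6% heterozygous), against 72.6% of that of all tested genes (14.7% and 12.7%). The gaps were not tested.

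**Figure D4:**
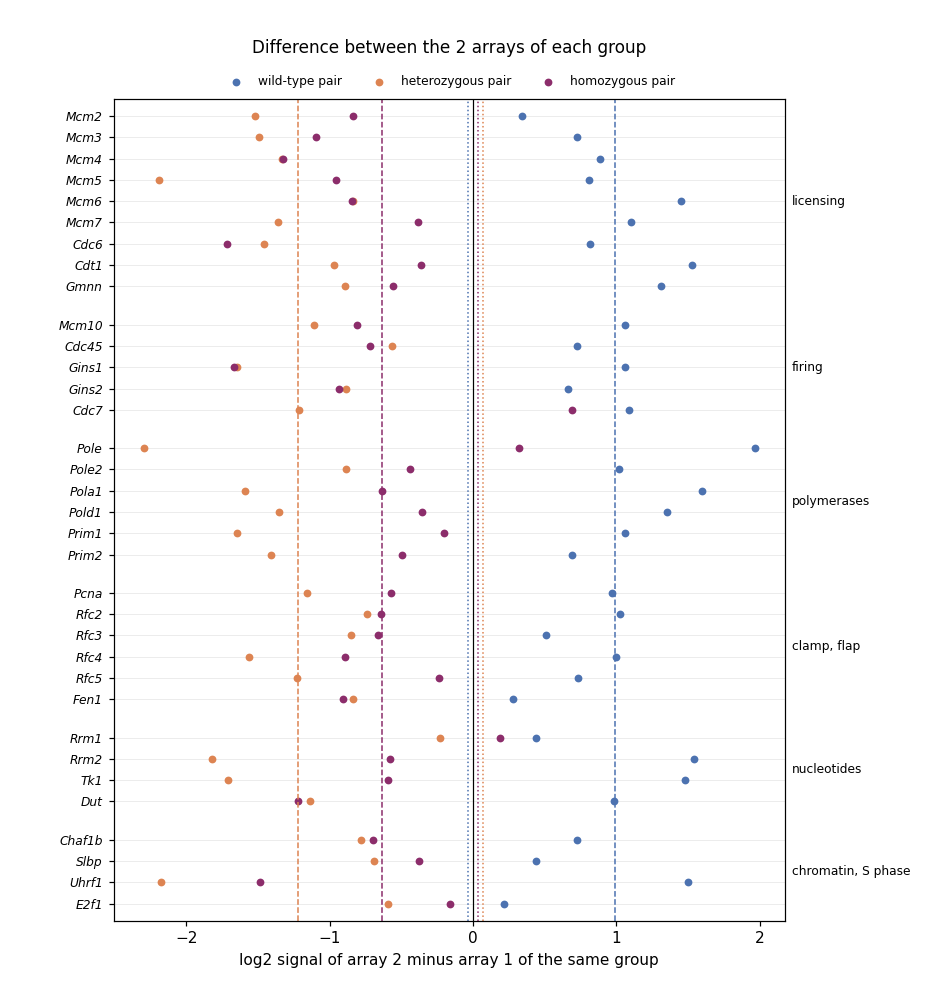
Log2 signal of array 2 minus array 1 within each group (colour) for the 34 tested members (rows). Dashed lines mark the medians of members (0.99, -1.22 and -0.64 for wild-type, heterozygous and homozygous pairs) and dotted lines those of all tested genes, which lie near 0.

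Other genes of replication, listed apart from the members, were mostly higher in homozygous cells too. Of 37 further genes of the replication machinery 34 were positive between homozygous and wild-type cells (median 1.18, 0 passed) and 33 between homozygous and heterozygous cells (median 1.22, 1 passed). That gene was Orc2, a subunit of the origin recognition complex, with signals of 528 and 524 with wild-type p53, 487 and 391 in heterozygous and 1718 and 1126 in homozygous cells; it rose by 1.67 ± 0.29 (adjusted p 0.0495, limma), and passed in 5 of 17 alternative settings (adjusted p 0.00810 to 0.396). The 3 that were not positive against wild-type were Pole3, Mcm9 and Pold4. Mcm9, a relative of the helicase subunits, and Pold4, a small polymerase delta subunit, lay lower in homozygous than in wild-type cells, with log2 differences of -0.68 ± 0.26 and -0.92 ± 0.35, without passing. Pold2, another polymerase delta subunit and the gene of this list with the largest difference from wild-type after Ticrr, had 607 and 1135 with wild-type p53, 1508 and 913 in heterozygous and 5482 and 2632 in homozygous cells. Ticrr, a firing factor, had 12.8 and 133 with wild-type p53, 124 and 7.65 in heterozygous and 324 and 252 in homozygous cells, with wild-type array 1 and heterozygous array 2 under background. Chtf18, of the same list, had 96.2 and 87.6, 51.5 and 5.31, and 443 and 210. Both passed the filter on dim genes only through their homozygous signals. Their positive differences were thus built in and lend no weight to the counts and medians above.

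Of 11 further genes of nucleotide supply 9 were positive against wild-type cells, with a median of 0.72. Cad, which catalyses the opening steps of pyrimidine synthesis, had 320 and 366 with wild-type p53, 464 and 294 in heterozygous and 1899 and 1243 in homozygous cells. It rose by 2.17 ± 0.35 against wild-type (adjusted p 0.04999) and by 2.06 ± 0.35 against heterozygous cells (adjusted p 0.0475, limma), at the edge of the threshold. It passed in 5 of 17 alternative settings in the former comparison (adjusted p 0.00841 to 0.436) and in 4 of 17 in the latter (adjusted p 0.00934 to 0.396). Rrm2b, a ribonucleotide reductase subunit that is a p53 target, had 765 and 635 with wild-type p53, 512 and 870 in heterozygous and 586 and 629 in homozygous cells. It and Tk2, the mitochondrial thymidine kinase, were the 2 that were not positive. Of 19 further genes of S-phase control and chromatin replication 18 were positive against wild-type (the exception was Rbbp7), with a median of 1.24 and 0 passing. Ccne1, cyclin E1, had 257 and 252 with wild-type p53, 235 and 199 in heterozygous and 520 and 501 in homozygous cells. It rose by 1.24 ± 0.22 against heterozygous cells (adjusted p 0.0495, limma) and passed in 5 of 16 alternative settings (adjusted p 0.0284 to 0.396). Hells, a chromatin remodeller of cycling cells with the largest difference from wild-type in this list, had 957 and 1631 with wild-type p53, 1795 and 617 in heterozygous and 7785 and 3965 in homozygous cells.

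Genes of mitosis were, at the median, level between the homozygous arrays. Of 14 tested mitosis genes 14 were positive between homozygous and wild-type cells (median 1.503, 0 passed), and in the wild-type and heterozygous pairs they split as the replication genes did (medians of 1.48 and -1.61 for array 2 minus array 1, with 14 and 0 higher in array 2). In the homozygous pair 7 of 14 were higher in array 2, with a median of 0.02, where 31 of 34 replication members were higher in array 1, with a median of -0.64. Further replication machinery had a median of -0.50 with 4 of 37 higher in array 2, further nucleotide supply -0.52 with 1 of 11, and further S-phase control -0.37 with 4 of 19. Top2a, the topoisomerase of dividing cells, had 2053 and 5568 with wild-type p53, 5671 and 1887 in heterozygous and 12981 and 13450 in homozygous cells, level between the homozygous arrays. Bub1, a spindle checkpoint kinase, had 661 and 2487 with wild-type p53, 2494 and 580 in heterozygous and 7116 and 4864 in homozygous cells. The difference between the lists rests on a single pair of arrays and was not tested. Without both close arrays the medians against wild-type were 1.40 for further replication machinery (33 of 37 positive), 0.97 for further nucleotide supply (9 of 11), 1.69 for further S-phase control (18 of 19) and 2.23 for mitosis (14 of 14).

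**Figure D5:**
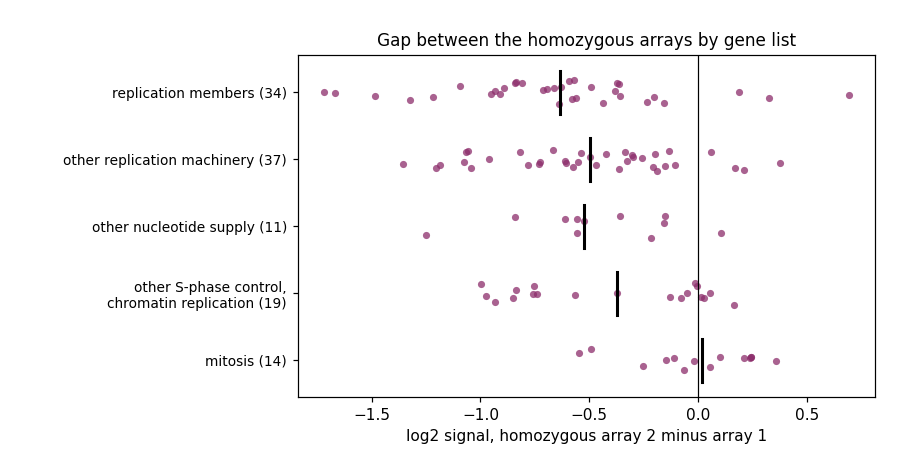
Log2 signal of homozygous array 2 minus array 1 for each tested gene (points, spread vertically for visibility) of the replication members and 4 other lists, with list medians as black bars. Medians are -0.64 for the members and 0.02 for mitosis genes.

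Other probe sets of the members were also read. The 35 genes had 81 probe sets that name them alone, of which 17 lay under the filter. Beside the probe sets used, 30 of 22 genes lay above it. Of these, 30 of 30 had the same sign between homozygous and wild-type cells as the probe set used. Between the homozygous arrays 28 of 30 had the same sign. The filter takes the mean over all 6 arrays, so high homozygous signals help a probe set to pass, and part of this agreement is built in. Under the filter, probe sets of Mcm6, Cdt1, Pola1, Prim2, Rrm1, Tyms, Slbp and E2f1 had the opposite sign, and others the same sign. Averaging all probe sets of a gene, dim ones included, turned the homozygous minus wild-type difference of Pola1 to -0.23, of Rrm1 to -0.37, of Slbp to -0.0898 and of E2f1 to -0.0678, and left the other 30 positive.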

How the data were processed

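Biotin-labelled RNA was hybridised to 6 arrays, per the labels' protocols. The authors deposited probe set intensities. The submitters' processing notes name RMA, with no version given in the sources used here, but the deposited intensities are linear, differ in their quantiles between arrays and share a trimmed mean of 500, as MAS-type signals do. Log2 was taken with no offset and no further normalisation. Of 45101 probe sets 34958 name 1 gene, 932 several and 9211 none; only the first were used, with the brightest per gene, and 34754 of them were matched to RefSeq by Entrez identifier. The background level, 24.5, was set at the maximum among 18 readings from 3 Trpn control probe sets. Signals of different probe sets are not comparable as levels. Arrays give no read depth; their number sets the precision.

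Group means were fitted to all 6 arrays with limma 3.58.1 in R 4.3.3 (empirical Bayes, no covariate, 3 residual and 2.26 prior degrees of freedom), over 10916 genes with a geometric mean signal of at least 60.2, with Benjamini-Hochberg adjustment over all of them. The procedure was tested on simulated data. For homozygous against wild-type arrays it recovered 0% of log2 shifts of 1, 31.1% of shifts of 2 and 87.1% of shifts of 4. Against heterozygous arrays it recovered 0%, 43.8% and 90.2%. A count of 0 members that passed therefore does not show that shifts of 1 to 2 are absent. Members, lists, roles and motifs were chosen with earlier results of these data known. All 36 members are named; of other lists, genes that passed are, with up to 3 of the largest differences per comparison, and Pole3, Mcm9, Pold4, Rrm2b, Tk2 and Rbbp7 were chosen after their values were seen. The mutated gene itself is not analysed here. Alternatives were quantile or median scaling, log2(value + 16), values raised to background, no filter or the 60th percentile, the mean of all probe sets, only the 2 groups compared, a spread per group, the replicate number as a block and each array left out; leaving out both close arrays was added after the data were seen. Motifs and figures were made with Python 3.11.15 and matplotlib 3.10.9.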

Additional observations from a re-analysis of the deposited data

How the results depend on the processing

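The positive medians of the members in both comparisons with homozygous cells kept their sign in all 17 alternatives. Several of these could not move them from 1.18 and 1.26. They were only the 2 groups compared, a spread per group, the replicate block, and leaving out an array of the group not compared. Leaving out both close arrays could only raise the medians. Leaving out each array gave medians from 0.70 to 1.62 against wild-type, from 0.68 to 1.90 against heterozygous (1.90 also without both close arrays) and from -0.79 to 0.41 between heterozygous and wild-type cells, and 0 to 3, 0 to 6 and 0 members that passed. No other alternative called a member. Calls over all genes depended far more on the processing. Against wild-type, in place of 291, they numbered 604 with log2(value + 16), 605 with values raised to background, 182 with the mean of all probe sets, 0 to 2663 with an array left out, and 0 with no filter, with only the 2 groups compared and without both close arrays. Against heterozygous, in place of 446, they numbered 718, 731 and 258 in the first 3 of these settings, 17 with no filter, 9 with only the 2 groups, 293 with a spread per group, 0 to 2841 with an array left out, and 0 without both close arrays. With the replicate number as a block they numbered 0 and 19, with 0 members. Deviations of arrays of the same number correlated at -0.30, -0.10 and 0.16. These values cannot show whether such arrays share more than a number, which was not tested. With the mean of all probe sets, dim ones included, the homozygous minus wild-type values of Pola1, Rrm1, Slbp and E2f1 turned to -0.23, -0.37, -0.0898 and -0.0678. With an array left out, Rfc2 ranged from -0.24 to 0.78 against wild-type and from -0.038 to 0.70 against heterozygous, and between heterozygous and wild-type cells Mcm5 from -1.79 to 0.40 and Pole from -0.89 to 1.40. Other causes were not tested.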
